A study of Capra hircus with 12 samples.

Results

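Early anagen and mid-anagen secondary hair follicles (SHFs) were compared through 4 small RNA libraries, the May pair and the September pair, out of 12 libraries in the series. All were made from SHFs of Liaoning cashmere goats aged 1.5 years, dissected from skin over the scapula, and each pair holds 1 library labelled female and 1 labelled male. No treatment or genetic change was applied, so the groups differ in calendar month, and May and September carry the phase names early anagen and mid-anagen. The remaining 8 libraries, telogen (February and March) and catagen (November and December), entered the fit to estimate the spread between libraries and are shown only as a reference. Several goats of each sex were sampled at each time point, and how they were combined into libraries is not given in the sources used here, so p-values measure only the spread between these libraries.

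SHFs are the small follicles that grow the cashmere fibre. Anagen is the phase in which the matrix at the base of the follicle divides and the fibre elongates, catagen the phase in which the follicle regresses, and telogen its rest. A miRNA gene is transcribed as a precursor hairpin that is cut into a duplex, from which the 5p or the 3p arm is usually retained in Argonaute while the other is degraded. The retained strand pairs with messenger RNAs and lowers their stability and translation. Several miRNAs are known in skin: the miR-200 family keeps epithelial cells epithelial, miR-203 drives epidermal cells out of division, miR-199a and miR-214 mark mesenchymal cells such as those of the dermis, and the miR-17-92 cluster favours cell division.

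All 376 listed miRNAs were considered, 339 under goat miRNA names and 37 by number. Of these, 281 had more than 5 CPM (counts scaled to the library's total) in at least 2 of the 4 libraries and were tested, 263 with names and 18 by number. At the edge of this filter, miR-582-5p was tested with a second-highest TPM of 5.08 (TPM is the deposited form of the same scaling, with no correction for length), and miR-1814 was not, with 4.84. A miRNA could pass this filter through the 2 libraries of 1 month alone. Its being tested then rested on the month where it is higher. The 95 untested miRNAs held at most 0.023% of the counts of any of the 4 libraries, and none of them exceeded a TPM of 10.4. Counts on miRNAs summed to 4136374 and 3135292 in the female and male libraries of May and to 5401442 and 5116946 in those of September. For abundant miRNAs, precision at these depths is limited by the number of libraries and not by counting. Counting error also weighs on miRNAs of low counts, such as miR-16b-3p with 9 and 31 counts in September. It is largest near the floor of 3 counts, which lies at a TPM of 0.725 and 0.957 in May and of 0.555 and 0.586 in September. The reads carry no molecular identifiers, so this floor covers counting error only. Female and male counts of a month differed by far more than sampling noise, with chi-square at 70.0 times its degrees of freedom in May and 259 times in September. This value pools miRNAs of all levels and does not show the same for those of low counts.

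The libraries carried the miRNAs of skin. In the 4 libraries the 9 listed products of the mesenchymal markers (miR-143, miR-145, miR-199a, miR-199b and miR-214) summed to TPMs of 136171 and 140589 in May and 141278 and 140852 in September. The largest single part was miR-143-3p, which the study located in the matrix of anagen SHFs by in situ hybridization. This sum is therefore not a level of mesenchyme alone. The 6 listed epithelial markers, mostly miR-203, summed to 88411 and 81375 in May and 56735 and 72600 in September, and miR-205 was not analysed here. Of the lists for other cell types, the endothelial miR-126 was the most abundant, with a summed TPM of 9686 and 9177 in May and 9135 and 10220 in September. The gut and pancreas list summed to 682 to 855 and the neural list to 201 to 239. The erythrocyte markers summed to a TPM of 16.6 to 45.9, the liver marker miR-122 to 0.484 to 1.95, and the leukocyte markers to 415 to 588, with May and September overlapping for the erythrocyte and leukocyte lists. Some markers were not analysed here: miR-486 of erythrocytes, miR-142 of leukocytes, miR-124 of neural tissue, miR-375 of gut and pancreas, and miR-208a and miR-208b of muscle. The sums leave them out. The striated muscle list, whose main member is miR-1, summed to 2113 and 2745 in May and to 3461 and 3389 in September, against 1902 to 3614 in the other 8 libraries. Of the listed markers, miR-206 of striated muscle was at 0 in the female May library, with 4, 5 and 3 counts in the others, and none was at 0 in all 4 libraries. Since the libraries are of bulk follicles, fewer cells of a type and less RNA per cell cannot be told apart in any value below.

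A few miRNAs dominated the libraries, and their share differed between the months. The 10 most abundant miRNAs took 67.2% and 65.8% of the counts in May and 74.8% and 74.7% in September. miR-26a-5p, a regulator of SMAD and EZH2 transcripts, was the most abundant with TPMs of 141194 and 134222 in May and 166727 and 146425 in September. Also among the 5 most abundant were miR-148a-3p, known to repress the DNA methyltransferase DNMT1, and miR-143-3p. The latter is known from mesenchymal and smooth muscle cells elsewhere, and the study located it in the SHF matrix. Together miR-148a-3p and miR-143-3p made up 13.5% and 13.6% of the counts in May and 24.4% and 20.7% in September, with no overlap between the months. A TPM is a share of its library, so how the libraries are scaled to each other sets the zero of every fold change.

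Both scalings are therefore given for the counts of calls and for many of the miRNAs below. A fold change with no scaling named is from TMM. TMM, which takes most miRNAs as unchanged on balance, gave factors of 1.28 and 1.28 to the May libraries and 0.889 and 0.890 to the September libraries. Scaling by library totals, which is what the deposited TPM does, leaves them all equal. Going from TMM to library totals lowered the log2 fold change from May to September of each of the 281 miRNAs by an almost constant amount, 0.51 to 0.52. The median log2 fold change was 0.05 with TMM and -0.47 with library totals. Without spike-ins, the counts do not tell which of these zeros is nearer to the amount of RNA per follicle.

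From May to September, 58 miRNAs were differentially expressed (DE) with TMM, 20.6% of those tested, by an adjusted p under 0.05 and at least a 2-fold change in edgeR's quasi-likelihood test. They split evenly, with 29 higher in September (10.3%) and 29 lower (10.3%). With library totals 81 were called (28.8%), of which 10 were higher in September (3.56%) and 71 lower (25.3%). All 29 falls under TMM were also falls under library totals (10.3% of those tested), and all 10 rises under library totals were also rises under TMM (3.56%). These 39 miRNAs were called in the same direction by both scalings. Another 19 were called higher with TMM alone and 42 lower with library totals alone, and none was called in opposite directions. At an adjusted p under 0.05 with no fold limit, the counts were 107 with TMM and 124 with library totals.

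**Figure D1:**
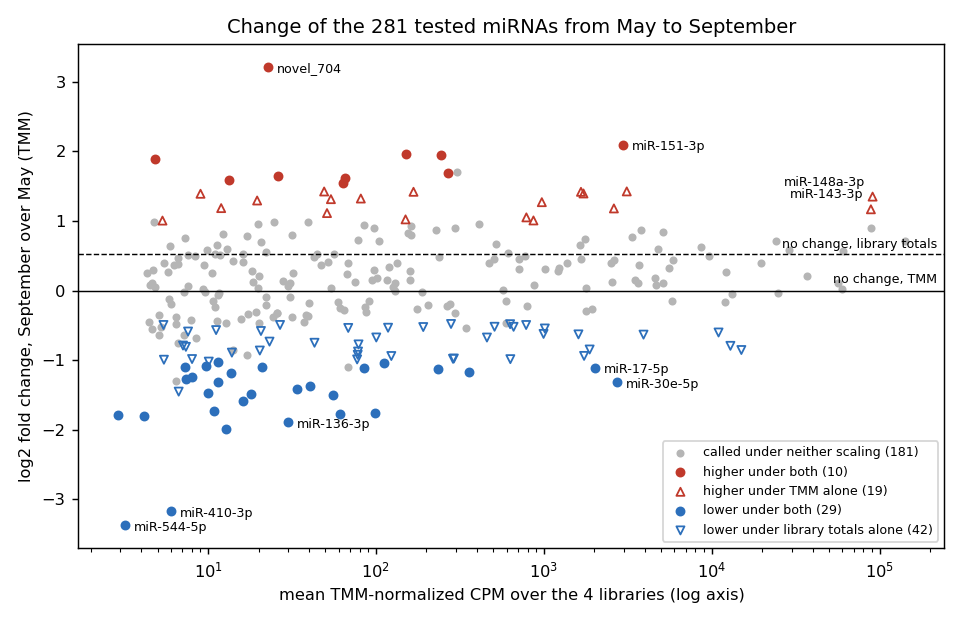
Each point is 1 of the 281 tested miRNAs, with its mean level over the 4 libraries on the x axis (TMM-normalized CPM, log axis) and its change on the log2 scale with TMM (September minus May) on the y axis. Filled symbols were called with both scalings, open ones with 1 scaling, and the dashed line 0.52 above the solid line marks no change with library totals. miR-143-3p and miR-148a-3p rose above both lines, at the right edge, and the largest falls sit among miRNAs of low level.

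In all, 221 of the 281 tested miRNAs (78.6%) had May and September libraries that did not overlap in TMM-normalized CPM, and all 58 called ones were among them. The female and the male ratio of September to May had the same sign for 240 of the 281 miRNAs. For all 58 called ones the same sign follows from the lack of overlap. The median absolute difference between the female and male libraries was 0.18 on the log2 scale in May and 0.21 in September, against a median absolute fold change of 0.53 between the months. In a fit of 6 month groups over 300 miRNAs, 52 were called between May and September with a median absolute log2 fold change of 0.54. The other steps of consecutive sampled months gave 0 to 4 calls (4 from December to February) and medians between 0.19 and 0.36, and each of these steps shares its libraries with its neighbours in the year. May to September was chosen for this report as the largest of these steps, so its rank is no separate result. It is also the longest step in time. No difference of the May to September change between the sexes was called at an adjusted p under 0.05 by edgeR with TMM, edgeR with library totals or DESeq2 (0 each), and 7 miRNAs had an unadjusted p under 0.05 in the first and 5 in the second. With 1 library per sex and month, this test assumes that these libraries vary as the telogen and catagen pairs do.

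By level, the calls were distributed as follows, against 10.3% of all tested miRNAs in each direction with TMM. Of the 58 miRNAs with a mean level of at least 1000 CPM, 7 were called higher in September and 2 lower, miR-30e-5p and miR-17-5p. Of the 161 under 100 CPM, 14 were called higher and 24 lower. With library totals the calls were 1 higher and 10 lower among the former and 6 higher and 44 lower among the latter, and no test of a relation between level and direction was made. The 29 miRNAs called higher held 14.6% and 14.7% of the counts in May and 26.7% and 22.6% in September, and the 29 called lower held 1.06% and 1.099% in May and 0.296% and 0.340% in September. These shares were computed from the calls they describe and are no separate test.

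The falls of 6 miRNAs remained called in each of 12 fits with TMM that left out 1 library in turn: miR-544-5p, miR-410-3p, miR-376c-3p, miR-497-5p, miR-365-3p and miR-99a-3p. All 12 fits kept the same set of tested miRNAs. The first 3 come from the imprinted DLK1-DIO3 domain, a large array of miRNA genes expressed from the maternal chromosome. The TPM of miR-410-3p was 13.5 and 14.03 in May (female and male) and 1.30 and 0.782 in September, on 56 and 44 counts and then 7 and 4. Both May libraries stood far above both September libraries, and the change on the log2 scale was -3.17 with TMM (standard error 0.64, adjusted p = 0.00282) and -3.69 with library totals. miR-544-5p had 26 and 27 counts in May (TPM of 6.29 and 8.61) but 2 and 3 in September (0.370 and 0.586). As both September libraries are at or under the floor of 3 counts per library, it was at least 9.09-fold lower with TMM and at least 13.0-fold lower with library totals. Both miR-410-3p and miR-544-5p passed the filter of 5 CPM through the May libraries alone. Remaining called in the 12 fits is therefore no separate support for these falls.

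miR-376c-3p went from 26.4 and 35.7 TPM in May to 6.48 and 7.82 in September, or -1.59 on the log2 scale (adjusted p = 0.00159, standard error 0.28). miR-497-5p, a member of the miR-15 and miR-16 family that restrains cyclins, went from 30.5 and 37.6 to 7.96 and 8.99 (log2 fold change -1.48, standard error 0.29, adjusted p = 0.00268). In both the libraries of a month lay close together against the gap between the months. For miR-365-3p TPMs of 361 and 455 stood against 136 and 124, a fall by 1.13 with TMM at an adjusted p of 0.00118. miR-99a-3p, the minor arm of a miRNA that targets MTOR, fell by 1.11 (adjusted p = 0.00228), from 137 and 159 to 50.4 and 44.9. With library totals all 6 were lower by a further 0.51 to 0.52.

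Other large falls were less secure, since their call was lost when a single library was left out. miR-411b-5p had TPMs of 22.0 and 30.3 in May and 3.89 and 5.28 in September (log2 fold change -1.98), and miR-136-3p 51.7 and 68.3 against 10.4 and 12.1 (-1.89). Both are DLK1-DIO3 miRNAs, and both calls were lost without the male May library (-1.83 and -1.78) and without the female September library (-1.81 and -1.81). miR-301a-3p, a relative of miR-130, went from 8.46 and 7.97 TPM to 1.30 and 1.95 (-1.81), and its call was lost without the female September library (-1.57). It too passed the filter through the May libraries alone. miR-369-5p (-1.79), miR-3958-3p (-1.77) and miR-494 (-1.75), again from DLK1-DIO3, completed the 8 largest falls. Their calls remained in 9, 3 and 8 of the 12 fits. The call of miR-369-5p was lost without the female May (-1.90), male May (-1.95) or female September library (-1.21), those of miR-494 and miR-3958-3p without any 1 of the 4 libraries (-2.16 to -1.46 and -2.17 to -1.62), and that of miR-3958-3p also without any 1 catagen library (-1.77) or the male February library (-1.89). In none of the 3 did a September library reach the lower May library, which was a condition for naming them. For miR-494, the most abundant of them, TPMs were 169 and 218 in May and 30.2 and 49.8 in September.

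Among abundant miRNAs, miR-30e-5p and miR-17-5p fell. miR-30e-5p, encoded in an intron of the transcription factor gene NFYC, had TPMs of 4962 and 4968 in May and 1265 and 1510 in September. The May libraries were nearly equal in it, and the change was -1.32 on the log2 scale with TMM (standard error 0.31, adjusted p = 0.00614) and -1.84 with library totals. miR-17-5p, which represses cell cycle inhibitors, had 3481 and 3533 TPM in May and 1004 and 1255 in September (-1.11, standard error 0.25, adjusted p = 0.00503). Without the female September library both fell short of a call (-1.23 and -0.99). miR-193b-3p and miR-365-3p, encoded next to each other in mammals, were the next most abundant falls, miR-193b-3p with TPMs of 603 and 663 in May and 247 and 147 in September (-1.16, adjusted p = 0.00527), which was -0.83 without the male September library.

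**Figure D2:**
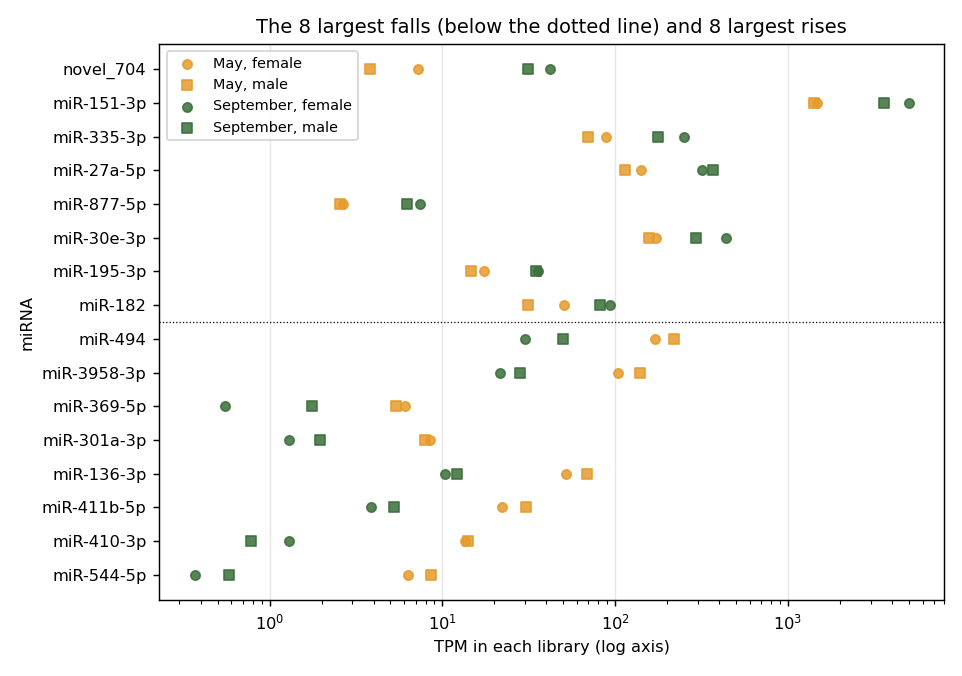
TPM in each of the 4 libraries (log axis) for the 8 largest falls, below the dotted line, and the 8 largest rises, above it, with May in orange, September in green, circles for female and squares for male libraries. The 16 miRNAs were picked among those whose May and September libraries do not overlap in TMM-normalized CPM, so the gaps are no result. For novel_704 the gap runs from 7.25 in the female May library to 31.5 in the male September library.

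With TMM, which all 12 fits used, 13 rises remained called in each fit, beside the 6 falls. This balance depends on the scaling, since library totals called 10 miRNAs higher and 71 lower. Of the 13 rises, 8 were called with both scalings: novel_704, miR-151-3p, miR-335-3p, miR-27a-5p, miR-877-5p, miR-30e-3p, miR-195-3p and miR-182. novel_704, a candidate known only by its number, had TPMs of 7.25 and 3.83 in May and 41.8 and 31.5 in September. It had the largest rise of all tested miRNAs, at 3.21 on the log2 scale with TMM (standard error 0.42, adjusted p = 0.000606) and 2.70 with library totals. miR-151-3p, encoded in the gene of the focal adhesion kinase PTK2, had 1475 and 1414 TPM in May and 4991 and 3579 in September (2.09, standard error 0.31, adjusted p = 0.00099). miR-335-3p, from the imprinted gene MEST, had 88.0 and 69.8 against 251 and 176 (1.96), and miR-27a-5p 142 and 114 against 320 and 368 (1.95). In these 4 both September libraries were above both May libraries, which was a condition for naming them.

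miR-877-5p, spliced out of an intron of ABCF1, rose from 2.66 and 2.55 TPM to 7.41 and 6.25 (log2 fold change 1.90). It passed the filter through the September libraries alone, so remaining called is no separate support for its rise. miR-30e-3p, the partner of the falling miR-30e-5p, rose from 171 and 156 to 439 and 295 (1.68, adjusted p = 0.00146). miR-195-3p rose from 17.4 and 14.7 to 35.7 and 34.6 (1.65). miR-182, a miRNA of sensory and skin epithelia, rose from 50.3 and 31.3 to 92.9 and 82.1 (1.62). With library totals the log2 fold changes of these 4 were 1.38, 1.16, 1.13 and 1.097. The 10 rises called with both scalings also include miR-99b-3p (1.59 with TMM, 1.07 with library totals) and novel_494 (1.55 and 1.02), the latter named after its values were seen. The call of miR-99b-3p was lost without the female May (1.52), male May (1.37) or female September library (1.31), and that of novel_494 without the female May (1.16) or female September library (1.15).

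Rises that needed the TMM scaling for their 2-fold limit include the most abundant ones. miR-378-3p, from an intron of PPARGC1B, had 2197 and 2128 TPM in May and 4200 and 3887 in September, which gave 1.42 on the log2 scale with TMM (standard error 0.16) and the smallest adjusted p of all tested miRNAs, 0.000198. With library totals it was 0.90, under the limit, at an adjusted p of 0.00109. miR-200a, which represses the ZEB transcription factors, had 1283 and 1032 TPM in May and 2314 and 1997 in September (1.42 with TMM, 0.90 with library totals). miR-22-3p, known in mouse follicles for promoting the passage from anagen to catagen, had 65.5 and 52.9 against 108 and 98.1 (1.32 and 0.80). miR-125b-3p (1.42 and 0.90) and miR-30a-3p (1.31 and 0.79) complete the 13. All of these were also positive with library totals, at adjusted p between 0.00109 and 0.033.

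miR-143-3p had 70711 and 69049 TPM in May and 109577 and 109071 in September. The libraries of a month were within a few percent of each other, and the change on the log2 scale was 1.17 with TMM (standard error 0.21, adjusted p = 0.0018) and 0.65 (adjusted p = 0.00956) with library totals. Its call was lost without the female May library, at 0.98. For miR-148a-3p, 64056 and 66791 TPM in May stood against 134754 and 97494 in September, a wider spread (1.35 with TMM, standard error 0.35, adjusted p = 0.0108). With library totals miR-148a-3p was at 0.83, under the fold limit. It remained called in 9 of the 12 fits, with 1.11 without the female May library, 1.28 without the male May library and 1.06 without the female September library. Of the 5 most abundant miRNAs, the other 3 did not reach the fold limit under either scaling: miR-26a-5p at 0.71 with TMM and 0.19 with library totals, miR-27b-3p at 0.89 and 0.37, and let-7f-5p at 0.56 and 0.04.

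Of the miRNAs that the study names at this transition, miR-378-3p, miR-200a and miR-143-3p were thus called with TMM alone, and miR-199a-3p and miR-146a with library totals alone. miR-199a-3p, a mesenchymal miRNA, had 24306 and 25096 TPM in May and 8823 and 10219 in September, which gave -0.85 on the log2 scale (adjusted p = 0.0052) with TMM and -1.38 (adjusted p = 0.00171) with library totals. miR-146a, which damps NF-kB signalling, had 1002 and 873 against 384 and 551, which gave -0.48 (adjusted p = 0.311) with TMM and -1.004 (adjusted p = 0.0244) with library totals. In TPM the May and September libraries of both were apart.

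Of the 29 falls, 10 came from a single array of neighbouring genes. RefSeq places 334 of the 376 miRNAs by name, and genes no more than 10 kb from the next were taken as a cluster. The largest cluster, in the DLK1-DIO3 domain, gave 40 listed miRNAs of which 26 were tested, and 10 were called lower and 0 higher with TMM, against 10.3% called lower of all tested miRNAs. With library totals 13 of the 26 were called lower, against 25.3% of all tested miRNAs. The 10 called with TMM are miR-544-5p, miR-410-3p, miR-411b-5p, miR-369-5p, miR-3958-3p, miR-494, miR-376c-3p, miR-369-3p, miR-3959-3p and miR-376e-3p. Besides those described above, the call of miR-369-3p was lost without the male May (-1.49) or female September library (-1.37), and those of miR-376e-3p and miR-3959-3p without the male May (-0.99 and -1.29), female September (-1.17 and -1.24) or male September library (-1.22 and -1.43). The median log2 fold change of the 26 was -0.91 with TMM and -1.43 with library totals, against 0.05 and -0.47 over all tested miRNAs. Their summed TPM was 1435 and 1696 in May and 834 and 841 in September, and for 22 of the 26 both September libraries were below both May libraries in TMM-normalized CPM, as was so for 39.5% of all tested miRNAs.

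The array did not move as a block. miR-379-5p, its most abundant tested member, had TPMs of 474 and 570 in May and 503 and 453 in September, with log2 fold changes of 0.39 with TMM and -0.13 with library totals. miR-382-3p (-0.03), miR-409-3p (0.05) and miR-381 (0.12) were also near 0 with TMM. Of the 10 calls, 3 remained in all 12 fits, and none of the 26 miRNAs was called higher under either scaling. The neighbouring group that lies antisense to the imprinted gene RTL1 had 7 tested members with a median of -0.68, of which miR-136-3p alone was called with TMM, and miR-127-3p was the highest at 0.48. The call of miR-136-3p was lost without the male May (-1.78) or female September library (-1.81). In telogen the array varied between libraries: miR-410-3p had TPMs of 1.55 to 3.15 in 3 of the 4 libraries and 9.92 in the male March library, and miR-494 29.5 to 72.5 and then 168.

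Members of the miR-17-92 cluster and its paralogs, which act on cell cycle and survival transcripts, gave 3 falls. Of 17 tested, 3 were called lower with TMM (miR-17-5p, miR-17-3p and miR-19a) and 0 higher, against 10.3% lower of all tested miRNAs, and 10 were called lower with library totals, against 25.3%. The median log2 fold change was -0.75 and -1.27, against 0.05 and -0.47 over all tested miRNAs. miR-19a had TPMs of 68.4 and 56.5 in May and 11.8 and 20.9 in September (-1.41, or -1.09 and no longer called without the female September library). For miR-17-5p the value without the female September library was -0.99, and the call of miR-17-3p was also lost without it (-0.78), without either May library (-1.16 and -1.31) or without either November library (-1.10 each). Several members lay just inside the fold limit, such as miR-106a-5p (-0.99), miR-19b-3p (-0.99), miR-106b-5p (-0.98) and miR-93-5p (-0.94). miR-19b-3p had 1021 and 1123 TPM in May and 356 and 398 in September, and miR-93-5p 2778 and 3052 against 1027 and 1092. Members with the opposite sign were miR-25-3p (0.84), miR-106b-3p (0.71) and miR-92a-3p (0.18), of which only the last turned negative with library totals (-0.34).

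The miR-199 and miR-214 list had 5 tested members. None was called with TMM, where the median was -0.60, and 4 were called lower with library totals, where it was -1.12. miR-199a-5p had TPMs of 19525 and 22348 in May and 8294 and 8531 in September, and miR-199b-5p 16152 and 17677 against 7973 and 7550. miR-214-3p was the exception, with 50.5 and 42.7 in May and 46.3 and 47.3 in September. The summed TPM of the list was 60124 and 65281 in May and 25183 and 26400 in September, while that of miR-143 and miR-145, also on the list of mesenchymal markers, was 76047 and 75308 in May and 116095 and 114452 in September. The summed level of the mesenchymal markers given above was thus made of parts that differed in opposite directions in TPM.

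Among epithelial miRNAs, those called were miR-200a, miR-182 and miR-183, all higher. By RT-qPCR against a reference gene, the study also found miR-200a higher in September than in May. That measurement uses neither scaling of the libraries. In the miR-200 family of 5, miR-200a was called higher, and miR-200b, miR-200c, miR-141 and miR-429 had log2 fold changes of 0.32, -0.15, -0.27 and 0.37 with TMM, none of which passed the test. miR-200a, miR-200b and miR-429 share a RefSeq cluster, and miR-200b had TPMs of 6508 and 6123 in May and 5443 and 5558 in September. miR-203 had 72836 and 65726 against 43797 and 60017, a log2 fold change of 0.10 with TMM and -0.42 with library totals. miR-184, a miRNA of surface epithelia, had 281 and 81.7 in May and 408 and 419 in September, where the spread within May left a log2 fold change of 1.71 without a call (adjusted p = 0.0694). miR-183 and miR-182, neighbours in the genome, were both called higher (1.05 and 1.62), miR-183 with TMM alone. The call of miR-183 was lost without the female May (0.93), male May (0.87) or male September library (0.99), and without any of 3 telogen libraries (0.90 to 0.93).

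On the list of miRNAs known to act in the hair cycle, 8 were tested, and 4 were called higher and 0 lower with TMM, against 10.3% of all tested miRNAs in each direction. The 4 were miR-125b-3p, miR-22-3p, miR-218 and miR-24-5p. The list takes in both arms of a precursor, and miR-125b-3p and miR-24-5p are the less abundant arms of theirs. miR-24-5p had only 45 and 24 counts in May and 60 and 95 in September. miR-218, which acts on Wnt signalling in dermal cells, had TPMs of 892 and 565 in May and 1313 and 1134 in September (1.27), and fell short of a call without the male May library (0.88) and the female September library (1.12). The call of miR-24-5p was lost without the female May (1.27), male May (0.87) or male September library (0.77). In 3 of these precursors the other arm did not follow: the more abundant miR-125b-5p and miR-24-3p were at -0.52 and 0.11, and the less abundant miR-22-5p at -0.32. With library totals none of the 8 was called higher, against 3.56% of all tested miRNAs, and miR-125b-5p was called lower. miR-21-5p, an abundant miRNA of skin, had a log2 fold change of 0.02.

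Further lists held 1 to 3 calls or none. Of 16 tested let-7 members 1 was called, let-7i-3p lower (-1.73), and the family's median was 0.14 with TMM and -0.38 with library totals. The miR-23, miR-27 and miR-24 clusters had 2 rises of 9 tested (miR-27a-5p and miR-24-5p) and no fall, with a median of 0.77. miR-28-3p, miR-151-3p and miR-708-3p rose among 6 tested of their list. miR-708-3p, from an intron of TENM4, had 1335 and 1090 TPM in May and 2419 and 2022 in September (1.39, or 1.15 and no call without the male May library). With library totals miR-708-3p and miR-28-3p were at 0.87 and 0.49, under the fold limit. The call of miR-28-3p was lost without either May library (0.83 and 0.88), the female September library (0.97) or any of 3 telogen libraries (0.85 to 0.89), that of let-7i-3p without the female September library (-1.53), and that of miR-16b-3p without the male May (-1.19) or female September library (-0.65). On the list of the miR-15, miR-16 and miR-195 family, miR-195-3p was called higher and miR-497-5p and miR-16b-3p lower with TMM among 10 tested. With library totals 1 of the 10 was called higher and 4 lower. Of the tested 5p arms only miR-497-5p was called with TMM, and miR-195-5p was below the filter. Calls in both directions are thus no split among the 5p arms. Of the 8 tested arms of candidate reference miRNAs none was called with TMM, and miR-107-3p (-1.46) and miR-423-3p (-1.14) were called lower with library totals. miR-140-5p, a cartilage miRNA, fell by 1.04 on the log2 scale, and miR-29b-3p, a repressor of collagens, rose by 1.29 on low TPMs of 16.4 and 12.4 in May and 24.99 and 24.6 in September. With library totals miR-29b-3p was at 0.77, under the fold limit. The call of miR-140-5p was lost without the male May (-1.08), female September (-0.98) or male September library (-1.14), and that of miR-29b-3p without any 1 of the 4 libraries (1.01 to 1.31).

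On the marker lists of other cell types, miR-1 of striated muscle was called higher with TMM, with 1752 and 2339 TPM in May and 3270 and 3184 in September (1.18, or 0.66 and no call with library totals), while miR-133a-3p of the same tissue went from 259 and 317 to 133 and 147 (-0.53 with TMM and no call, -1.05 and a call with library totals). The call of miR-1 was lost without any 1 of the 4 libraries (0.78 to 1.30). The part of muscle in any result was not tested. miR-223-5p of myeloid cells rose by 1.39 with TMM on 6.29 and 6.38 TPM in May and 7.04 and 16.2 in September, and its call was lost without the female May (1.18), male May (1.31) or male September library (0.67). miR-9-5p, known from neural tissue, rose by 1.11 and miR-217-5p, known from the pancreas, had -1.09 with TMM and a call lost without the male May (-1.03), female September (-1.26) or male September library (-0.97). The call of miR-9-5p was lost without any 1 of the 4 libraries (0.91 to 1.16) or any of 3 telogen libraries (0.96 to 0.99). With library totals miR-223-5p and miR-9-5p were at 0.87 and 0.59, under the fold limit.

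**Figure D3:**
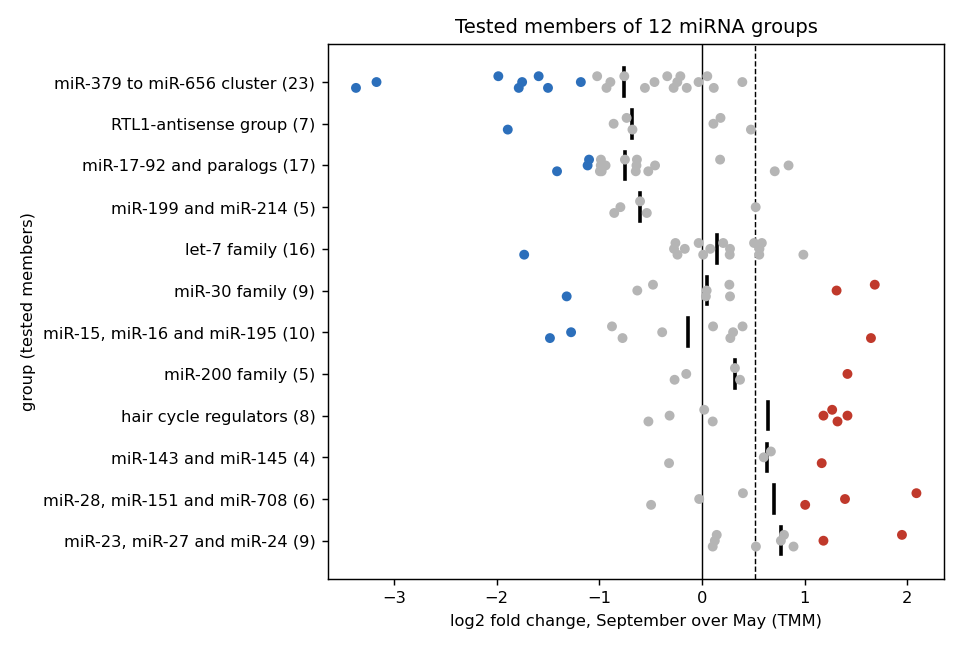
Log2 fold change from May to September with TMM for the tested members of 12 groups, where the number tested is in parentheses, black bars are medians, red and blue points were called higher and lower with TMM, and the dashed line is the zero of library totals. The miR-379 to miR-656 cluster reaches from -3.37 to 0.39, and red and blue points stand in the same row for the miR-30 family and for miR-15, miR-16 and miR-195. In both of these rows the red points are 3p arms.

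The ratio of the 5p to the 3p arm of a precursor is taken within a library and does not depend on how libraries are scaled. For 74 precursors both arms were tested. Ratios were taken on the log2 scale after adding 1 count to each arm. By limma, the ratio differed between May and September in 32 of them (43.2%) at an adjusted p under 0.05, moving toward the 3p arm in 22 and toward the 5p arm in 10. The change was at least 2-fold in 28, all but miR-500, miR-10a, miR-374a and miR-361. In all 32, May and September libraries did not overlap, as was so for 54 of the 74. In 20 of the 32 the arm that gained was the more abundant of the pair, and in 12 the less abundant. Over all 74 precursors, changed or not, the ratio moved toward the 3p arm in 46 and toward the less abundant arm in 36.

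miR-30e had the largest change. It gave 20523 and 15577 counts of the 5p arm and 709 and 490 of the 3p arm in May, and 6834 and 7729 against 2371 and 1509 in September. The ratio of 5p to 3p went from 30.3 to 3.84 as geometric means, with log2 ratios of 4.85 and 4.99 in May and 1.53 and 2.36 in September. This is a change of -2.98 (standard error 0.39, adjusted p = 1.18e-05), and miR-30e was the only precursor whose arms were called in opposite directions with TMM. With library totals miR-335 joined it, its 3p arm higher and its 5p arm lower. In telogen the log2 ratio of miR-30e was between 3.71 and 4.15, and in catagen between 1.63 and 3.12.

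In miR-378, miR-151, miR-335 and miR-143 the dominant 3p arm gained further. miR-378 had 68.0 counts of the 3p arm for each count of the 5p arm in May and 271 in September (log2 change of the 5p to 3p ratio -1.99, adjusted p = 3.78e-05). For miR-151 the 3p excess was 6.01 in May and 25.7 in September (-2.10, adjusted p = 0.000243), for miR-335 6.95 and 37.7 (-2.44, adjusted p = 3.78e-05), and for miR-143 166 and 474 (-1.51, adjusted p = 0.00039). In TMM terms the 5p arms of miR-151 and miR-143 had log2 fold changes of -0.03 and -0.32 while their 3p arms rose by 2.09 and 1.17. miR-708 went from near balance, with log2 ratios of -0.19 and 0.10, to -2.09 and -1.78.

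In miR-125b and miR-27a the minor arm gained. The ratio of miR-125b-5p to miR-125b-3p was 8.55 in May and 2.25 in September (-1.92, adjusted p = 3.78e-05), on 524 and 332 counts of the 3p arm in May and 1353 and 936 in September. miR-27a moved the other way, with 24.1 counts of the 3p arm for each of the 5p arm in May and 6.73 in September (1.84, adjusted p = 0.000206). miR-99a and let-7i moved toward an already dominant 5p arm. miR-99a went from a ratio of 157 to 557 (1.82, adjusted p = 0.000236), while let-7i changed by 2.29 (adjusted p = 0.000556) on 94 and 63 counts of the 3p arm in May and 20 and 27 in September.

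Not every precursor with a called arm changed its ratio. Both arms of miR-17 were called lower, and its ratio stayed at 273 in May and 270.5 in September (change -0.01, standard error 0.31). miR-369, whose arms were also both called lower, changed by -0.30 (standard error 0.38). In miR-136 the more abundant arm on average switched, from 3p to 5p, with log2 ratios of -0.62 and -0.75 in May and 0.58 and 0.34 in September, at an adjusted p of 0.0564. Of the 32 changed ratios, 19 remained in each of the 12 fits that left out 1 library, among them those of miR-30e, miR-378, miR-151, miR-335, miR-143, miR-708, miR-125b, miR-27a, miR-99a and let-7i.

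**Figure D4:**
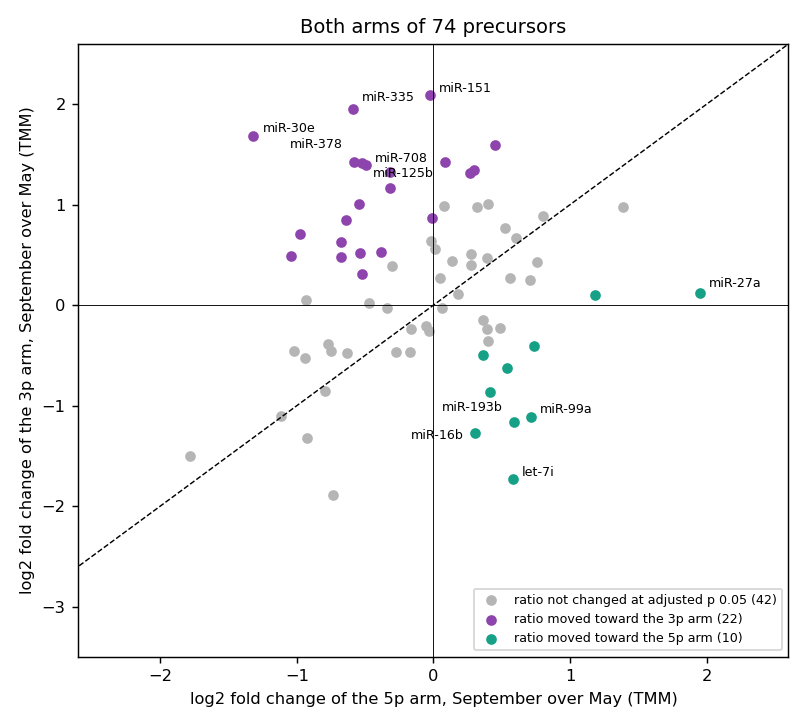
Log2 fold change from May to September (TMM) of the 5p arm (x axis) and the 3p arm (y axis) of 74 precursors, where the dashed diagonal marks an unchanged ratio. Purple points (22) moved toward the 3p arm and green points (10) toward the 5p arm at an adjusted p under 0.05, and miR-30e stands alone at upper left with a 5p change of -1.32 and a 3p change of 1.68.

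Levels in the other phases are set beside those of May and September for a few of these miRNAs. miR-30e-5p ranged from 2691 to 4367 TPM in telogen and from 1430 to 2789 in catagen, against 4962 and 4968 in May and 1265 and 1510 in September. miR-151-3p ranged from 1893 to 3085 in telogen and from 3064 to 4828 in catagen, and miR-27a-5p from 88.2 to 174 and from 268 to 352. novel_704 ranged from 10.2 to 23.9 in telogen and from 32.7 to 50.6 in catagen. miR-200a had its highest levels of the year in September, with catagen at 1333 to 1905 and telogen at 1379 to 1789. These ranges are a description and no further test was made of them.

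**Figure D5:**
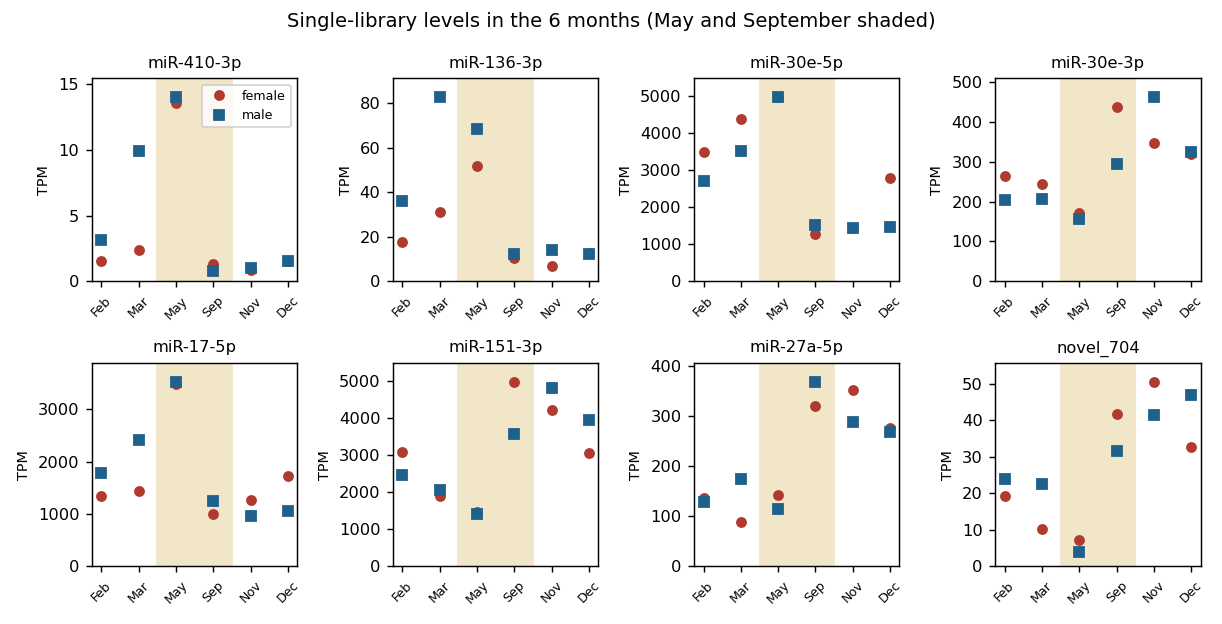
TPM in each of the 12 libraries by month for 8 miRNAs, with circles for female and squares for male libraries and May and September shaded and each axis starting at 0. miR-30e-5p stands at 4962 and 4968 in May and 1265 and 1510 in September, and its partner miR-30e-3p at 171 and 156 and then 439 and 295.

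How reads that match several near-identical miRNAs were assigned is not given in the sources used here, so values within the let-7, miR-17, miR-30, miR-199, miR-376 and miR-411 groups are uncertain to that extent. Single libraries weighed on the counts: 52 miRNAs were called without the female May library, 37 without the male May library, 28 without the female September library and 49 without the male September library, and of the 29 falls 8 were left in number without the female September library.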

How the data were processed

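SHF small RNA libraries of 6 months were sequenced on an Illumina HiSeq. After adapter trimming, the authors aligned reads to the goat assembly CHIR_2.0, used miREvo and mirDeep2 to find miRNAs, and counted with Bowtie 0.12.9 (version per the submitters' processing notes). Raw counts of 376 miRNAs were deposited for each library, beside a TPM that equals the count scaled to the library's total within 0.005. Library sizes are the totals over all listed miRNAs.

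The count test was edgeR's (4.0.16, under R 4.3.3, with TMM, glmQLFit and glmQLFTest) in 1 fit of 12 libraries in 4 groups (telogen, May, September, catagen). A called miRNA has a Benjamini-Hochberg adjusted p under 0.05 over the 281 tested and at least a 2-fold change. The standard error is the absolute log2 fold change over the square root of F. Arm ratios were tested with limma 3.58.1. Alternatives included library totals, RLE, upper quartile, reference miRNAs, other filters, DESeq2 1.42.0, month groups, sex as a term and each library left out. Scripts were tested on simulated data.

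The members, the lists and the comparison were chosen with earlier results of these data known. The rules for naming took, in each direction, the 8 largest called changes without overlap and the 4 most abundant calls, the miRNAs the study names for this transition, the 5 most abundant, called members of the lists, and precursors with a changed arm ratio. Not all list members and precursors that meet these rules are described above. Other members of a list, given for contrast, were named after their values were seen. RefSeq genes of assembly ARS1.2, another build than the authors', gave only which miRNA genes neighbour each other. An exact permutation test of 2 against 2 libraries cannot go below a p of 0.333 and was not used. Mature sequences were not used here.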

Additional observations from a re-analysis of the deposited data

Results flagged for a closer look

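Of 46 groups of 4 libraries checked for a library far from the others (23 miRNAs in telogen and in catagen), 3 stood out by Dixon's test, where chance gives about 1 group in 20. All 3 lie outside May and September. In the female December library miR-30e-5p reached a TPM of 2789, against 1430 to 1474 in the other catagen libraries. miR-378-3p had 2881 in the male March library, against 2354 to 2404 in the other telogen libraries, and miR-182 had 97.8 in the female March library, against 64.0 to 69.1.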

How the results depend on the processing

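Against 58 calls (29 higher, 29 lower, median 0.05), library totals gave 10 higher and 71 lower and a median of -0.47. A filter of 50 CPM gave 36 calls (18 and 18) on fewer tested miRNAs. No minimum fold change gave 107 (56 and 51). The median change over all tested miRNAs was 0.0026 with upper quartile scaling, 0.074 with reference miRNAs, -0.0354 with TMM over the 4 libraries alone and -0.00357 with no filter. Leaving out 1 library gave 28 to 69 calls, 15 to 30 higher, 8 to 45 lower and medians from -0.17 to 0.046. The number of calls moved most without the female September (28) and male May (37) libraries, and falls numbered 45 without the male March library. The lone library left in a month was assumed to vary like the other groups. With library totals (chosen after seeing the data), leaving out each of the 4 libraries gave 46 to 76 calls, 5 to 11 higher, 41 to 65 lower and medians from -0.54 to -0.49. Changed arm ratios numbered 32, 18 where both arms passed 50 CPM, and 22 to 35 with 1 library left out. RLE, DESeq2, month groups and sex as a term shared 56, 56, 53 and 57 of the 58 calls. Of the 82 miRNAs that meet the rules for naming, 54 of them under the filter of 50 CPM, none reversed a call under the other scalings, filters, tools, groupings or single libraries left out with TMM. The labels give no replicate numbers, so animals were not paired, and with sex as a term over all 12 libraries 60 were called. The test of seed families was not run, as it needs mature sequences. The cause of these differences was not tested. Depth limits miRNAs of low counts, most of all those near 3 counts.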
